A study of Mus musculus with 6 samples.

Results

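The comparison of AICAR with control in undifferentiated 3T3-L1 fibroblasts consists of 2 of the 6 arrays of the series. Both were chosen by their labels alone, and no measured value entered the choice. 3T3-L1 is an established line of mouse fibroblasts with the capacity to become adipocytes. The treated fibroblasts received 0.5 mM AICAR for 3 days in DMEM with 10% calf serum, and the control fibroblasts grew in the same medium with no compound. For comparison, AICAR adipocytes received 0.5 mM AICAR during 3 days of induction in 10% fetal bovine serum with dexamethasone at 1 µmol/l, insulin at 1 µg/ml and IBMX at 115 µg/ml. As the labels' protocol reads, they were then kept for 3 days with insulin only, and control adipocytes went through the same steps without AICAR. Adenine fibroblasts received 0.5 mM adenine for 3 days and are compared with the same control array as the AICAR fibroblasts. Every condition has 1 array. No difference below therefore has a replicate check, a test is not possible, and precision is limited by how few arrays there are. Values are log2 signals as deposited, and a difference is the AICAR array minus the control array.

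AICAR (aminoimidazole carboxamide ribonucleoside) is a purine nucleoside. Cells take it up through nucleoside transporters, and adenosine kinase (Adk) phosphorylates it to ZMP, an analogue of AMP that is also an intermediate of de novo purine synthesis. ZMP binds the gamma subunits of the AMP-activated protein kinase (AMPK). AMPK senses a low energy state, favours the uptake of glucose and the breakdown of fuel, and restrains the synthesis of lipid and protein. AICAR also has effects that do not need AMPK.

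The 2 arrays held fibroblast RNA. All 10 fibroblast markers examined, which include collagens, Pdgfra, Thy1 and vimentin, were above the floor of 5.87 on both arrays. Their summed linear signal was 26071 with AICAR and 31917 in the control. The floor is the median of the mean levels of 19938 named genes, and the 9969 genes at or above it were compared. Of 7 adipocyte markers 1 was above the floor, the fatty acid binding protein gene Fabp4, at 8.62 with AICAR against 6.97 in the control. The summed signal of the 7 was 583 with AICAR and 302 in the control, against 10247 in control adipocytes. Apart from Fabp4 the 7 were below the floor on both arrays, with differences from -0.37 (Adipoq) to 0.48 (Cd36). Of 12 genes compared from a longer adipocyte list, 7 had differences above 0 and 5 below, with a median of 0.08. Of 5 leukocyte markers 1 was above the floor, Cd68, at 7.44 with AICAR against 5.95 in the control, while the defining marker Ptprc (CD45) stood at 4.21 with AICAR and 4.24 in the control. The summed leukocyte signal was 267 with AICAR and 145 in the control. Of 3 genes compared from a longer leukocyte list, 2 had differences above 0 and 1 below, with a median of 0.33. The 1 below 0 stood at 7.10 with AICAR and 7.99 in the control. In a longer list of 14 fibroblast markers 10 had differences below 0, and the median was -0.41. At 2-fold or more, 3 lay on the lower side, S100a4 (7.80 with AICAR, 10.1 in the control) among them, and 1 on the higher side, Fap (8.29 with AICAR, 6.80 in the control). Endothelial markers were below the floor on both arrays. Of 4 epithelial markers 1 was above it, Krt8, at 6.08 with AICAR and 5.95 in the control. From a longer epithelial list 1 gene of 11 on the array was compared, and it was lower with AICAR (5.98) than in the control (7.51). Of 4 muscle markers only Des was above the floor, in the control alone (5.79 with AICAR, 6.33 in the control). In bulk RNA, fewer cells of a kind and less RNA per cell cannot be told apart.

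With AICAR 169 genes were at least 2-fold higher (1.7% of the 9969), 368 were at least 2-fold lower (3.69%), together 537 (5.39%). The median difference of all 9969 genes was -0.03, with 47.5% of genes above 0 and 52.5% below. The robust standard deviation of the differences was 0.41, against 0.20 for AICAR in adipocytes and 0.16 for adenine in fibroblasts. With adenine 8 genes were at least 2-fold higher (0.0802%), and 5 were at least 2-fold lower (0.0502%). Counts of list members below are to be read beside the 1.7% and 3.69% of all genes. The gene lists were written with earlier results of these data known.

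**Figure D1:**
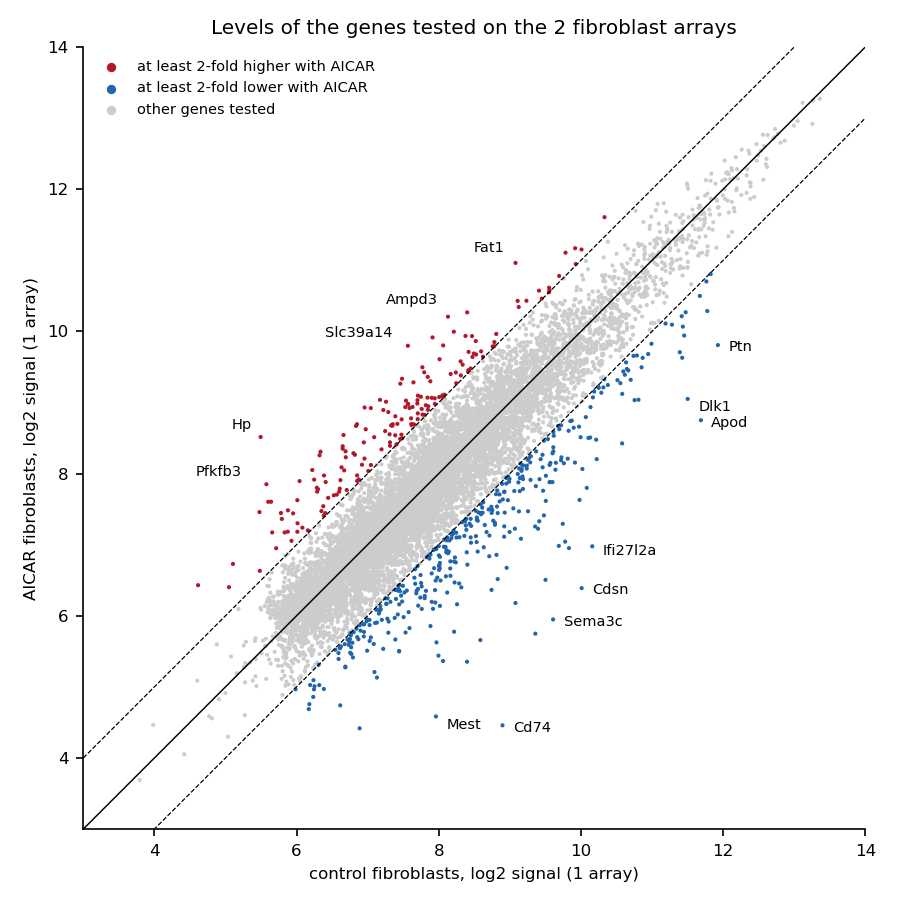
Log2 signal of the 9969 genes compared, control fibroblasts on the horizontal axis and AICAR fibroblasts on the vertical axis, 1 array each. The solid line marks equal levels and the dashed lines a 2-fold difference, with 169 genes above the upper dashed line or on it (red) and 368 below the lower one or on it (blue).

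Haptoglobin led the higher side. This acute-phase protein (gene Hp) had 8.51 with AICAR and 5.49 in the control, a difference of 3.02 or 8.11-fold. Its control level lay below the floor, so the size of that fold depends on the background correction. The same holds for 14 of the 169 higher genes, Hp included. Pfkfb3, which makes the fructose bisphosphate that activates glycolysis, had 7.85 with AICAR against 5.58 in the control. The zinc and iron importer gene Slc39a14 had 9.80 with AICAR against 7.57 in the control. Ampd3, an AMP deaminase that turns AMP into IMP, had 10.21 with AICAR against 8.13 in the control, and both levels were well above the floor.

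Regulators of transcription and signalling were also among the 30 largest differences on the higher side. Runx1, a Runt family transcription factor, stood at 8.92 with AICAR and 7.04 in the control. The Kruppel-like factor gene Klf9 stood at 10.27 with AICAR and 8.40 in the control, and the aryl hydrocarbon receptor (Ahr) at 8.69 with AICAR and 6.85 in the control. These 3 genes differed by 1.84 to 1.88. Foxp1, a forkhead repressor, differed by 1.75, the kinase gene Pim1 by 1.97, the MAP kinase phosphatase gene Dusp4 by 1.85 and Myc by 1.74. Hgf, the ligand of the Met receptor, had 9.26 with AICAR against 7.46 in the control. Among membrane proteins the atypical cadherin Fat1 had 10.96 with AICAR against 9.08 in the control, and the sodium, potassium and chloride cotransporter gene Slc12a2 had 10.0 with AICAR against 8.21 in the control. The lubricin gene Prg4 (7.46 with AICAR, 5.48 in the control) and Lyst, a regulator of lysosome size (9.91 with AICAR, 7.91 in the control), differed by 1.98 and 2.0.

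On the lower side the largest difference was that of Cd74. It encodes the chain that chaperones MHC class II molecules and stood at 4.46 with AICAR and 8.90 in the control. The guidance factor gene Sema3c stood at 5.95 with AICAR and 9.61 in the control, which is 12.6-fold lower. The imprinted gene Mest stood at 4.58 with AICAR and 7.96 in the control, 10.4-fold lower. For 66 of the 368 lower genes, Cd74 and Mest among them, the AICAR level lay below the floor. The genes that remained far above it included apolipoprotein D (Apod), at 8.75 with AICAR and 11.69 in the control, the growth factor gene pleiotrophin (Ptn), at 9.81 with AICAR and 11.93 in the control, and Dlk1, an inhibitor of fat cell differentiation, at 9.05 with AICAR and 11.50 in the control. Fhl2, a LIM domain cofactor, had 7.04 with AICAR against 9.78 in the control. The sorting receptor gene Sort1 had 5.44 with AICAR against 8.0 in the control, and the angiotensin receptor gene Agtr2 had 4.42 with AICAR against 6.89 in the control. Extracellular superoxide dismutase (Sod3) differed by -2.90 and corneodesmosin (Cdsn) by -3.62.

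**Figure D2:**
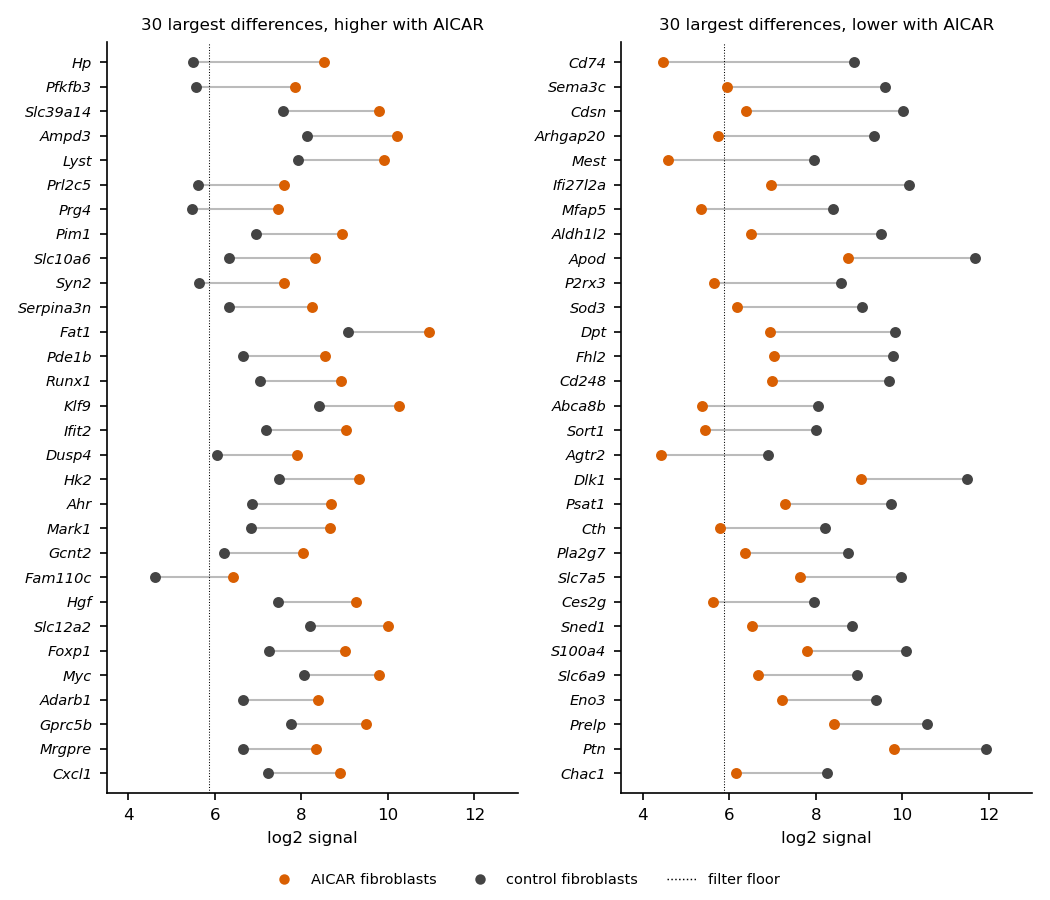
Log2 signal of the 30 genes with the largest differences each way, AICAR fibroblasts in orange and control fibroblasts in dark grey, 1 array each. The dotted line is the floor of 5.87, and control levels lie left of it for Hp, Pfkfb3, Prg4 and Fam110c among others, as AICAR levels do for Cd74, Mest, Mfap5 and Agtr2 among others.

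The genes that handle AICAR itself and AMP were examined next. Of 29 such genes above the floor 3 reached 2-fold on the higher side (10.3%, against 1.7% of all genes) and 0 on the lower side. The median difference was -0.17. Adk, the enzyme that phosphorylates AICAR, stood at 7.52 with AICAR and 8.42 in the control, a difference of -0.89. Beside Ampd3, guanine deaminase (Gda) had 7.45 with AICAR against 5.78 in the control, and the mitochondrial adenylate kinase gene Ak4 had 7.44 with AICAR against 6.40 in the control. The other AMP deaminase above the floor, Ampd2, lay the opposite way, at 7.04 with AICAR and 7.72 in the control, and Ampd1 was below the floor on both arrays. The salvage enzymes Aprt and Hprt differed by -0.07 and -0.02. In de novo purine synthesis 0 of 8 genes were 2-fold different. Atic, which converts ZMP onward to IMP, stood at 8.93 with AICAR and 8.74 in the control, and the list ran from -0.40 (Adsl) to 0.47 (Prps1).

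Nucleoside and nucleobase transporters were represented by 5 genes above the floor, of 10 on the array, and 4 of the 5 had a difference above 0. Slc43a3, a purine nucleobase transporter, had 10.57 with AICAR against 9.41 in the control. The equilibrative nucleoside transporter Slc29a1, a route of AICAR into cells, lay the other way at 9.05 with AICAR and 9.55 in the control. Of the purinergic receptors and ectonucleotidases 7 of 25 on the array were above the floor, and 3 of the 7 were at least 2-fold lower. The ATP-gated channel gene P2rx4 stood at 7.88 with AICAR and 9.57 in the control. P2rx3, which encodes a related channel, stood at 5.66 with AICAR and 8.59 in the control on the probe set used. Its other probe set differed by only -0.39, so the size of that difference is uncertain. The ectonucleotide pyrophosphatase gene Enpp3 had 7.12 with AICAR against 8.36 in the control.

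AMPK subunits and regulators had a median difference of 0.03 over 29 genes. The catalytic subunit Prkaa1 stood at 9.32 with AICAR and 9.37 in the control, and the differences of the 5 subunits above the floor ran from -0.25 (Prkag2) to 0.48 (Prkab2). The few large differences were in proteins that work with AMPK and mTORC1. Folliculin interacting protein Fnip2 had 8.87 with AICAR against 7.29 in the control. The sestrins, which restrain mTORC1, were lower: Sesn2 at 6.84 with AICAR and 8.71 in the control, Sesn3 at 8.16 with AICAR and 9.92 in the control, and Sesn1 at 6.41 with AICAR and 7.30 in the control. Ppargc1a, a coactivator of mitochondrial genes, stood at 6.50 with AICAR and 7.96 in the control.

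Sterol synthesis and the acute-phase genes described further on had the highest medians of the lists with 5 or more members above the floor, and which of them led depended on the scaling. Cells make cholesterol from acetyl-CoA through mevalonate, squalene and lanosterol, and the transcription factor SREBP2 (Srebf2) switches the enzymes on together when sterol is low. Of 19 enzymes above the floor 8 reached 2-fold on the higher side and 0 on the lower side, and the median difference was 0.86, against -0.03 for all genes. In pathway order, the synthase Hmgcs1 stood at 9.79 with AICAR and 8.97 in the control. The mevalonate decarboxylase Mvd stood at 8.49 with AICAR and 7.46 in the control, and the isomerase Idi1 at 8.53 with AICAR and 7.61 in the control. The kinases between them differed less, with -0.18 for Mvk and 0.44 for Pmvk.

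Among the later sterol enzymes, squalene synthase (Fdft1) stood at 10.58 with AICAR and 9.56 in the control, squalene epoxidase (Sqle) at 9.38 with AICAR and 8.31 in the control, and lanosterol synthase (Lss) at 8.54 with AICAR and 7.39 in the control. The demethylase Cyp51 had 8.05 with AICAR against 6.67 in the control, and Hsd17b7 had 8.94 with AICAR against 7.53 in the control. The exception at this end of the pathway was the reductase Tm7sf2, at 5.91 with AICAR and 6.58 in the control. Among 19 genes of sterol sensing, uptake and efflux, 3 reached 2-fold on the higher side and 2 on the lower side. Insig1, which holds SREBP back in the endoplasmic reticulum, had 10.34 with AICAR against 9.12 in the control, the sterol carrier gene Stard4 had 7.88 with AICAR against 6.41 in the control, and the efflux pump Abca1 had 8.34 with AICAR against 7.20 in the control. Srebf2 differed by 0.70. The protease gene Mbtps1, which cleaves SREBP, stood at 8.07 with AICAR and 9.13 in the control.

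A sterol regulatory element was searched in the 300 bases around the RefSeq start of each gene (250 before and 50 after, build GRCm38.p6, both strands) as TCACNCCAC. It was present in 1 of 19 windows of the cholesterol list, that of Hmgcs1, and in 1.24% of all 32851 windows. The stretch is shown because it carries the only match among the enzymes described above, with the match in capitals, on the plus strand at chr13:119690189-119690247.
Hmgcs1: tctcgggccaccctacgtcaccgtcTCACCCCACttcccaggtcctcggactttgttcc

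Genes of glucose use were higher in part. Of 23 glycolysis and lactate genes above the floor 4 reached 2-fold on the higher side and 0 on the lower side, with a median of 0.37. The glucose carrier gene Slc2a1 stood at 11.15 with AICAR and 10.01 in the control, and hexokinase Hk2 at 9.33 with AICAR and 7.48 in the control. The enolase gene Eno2 stood at 7.79 with AICAR and 6.61 in the control, while Eno3, another enolase that was not on the list, stood at 7.22 with AICAR and 9.40 in the control. The phosphofructokinase isoforms lay on both sides, with Pfkl at 9.0 with AICAR and 8.14 in the control and Pfkm at 7.78 with AICAR and 8.55 in the control. Of 20 hypoxia-responsive genes 15 had differences above 0, where 47.5% of all genes did, and the median was 0.42. At 2-fold or more 1 lay on the higher side (5%, against 1.7% of all genes) and 2 on the lower side (10%, against 3.69%). The higher one was the mitophagy receptor gene Bnip3, at 9.94 with AICAR and 8.38 in the control. The collagen hydroxylase gene P4ha1 (8.15 with AICAR, 9.65 in the control) and the hormone gene Stc1 (6.35 with AICAR, 7.43 in the control) lay the other way.

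Most mitochondrial genes of energy supply were lower, few of them by 2-fold. Of 35 subunits and assembly genes of respiratory complex I, which passes electrons from NADH to ubiquinone, 34 had a difference below 0, where 52.5% of all genes did, and the median was -0.59. Only Ndufv3 was at least 2-fold lower, at 8.68 with AICAR and 9.72 in the control. Ndufs7 was the 1 member above 0, at 10.48 with AICAR and 10.26 in the control. For complexes II to IV the median was -0.38 with 3 of 23 above 0, and Sdhb, the iron and sulphur subunit of complex II, stood at 8.06 with AICAR and 9.04 in the control. All 16 ATP synthase genes had differences below 0, with a median of -0.45. The lowest was the inhibitory factor Atpif1, at 10.27 with AICAR and 11.47 in the control, and the catalytic beta subunit Atp5b differed by only -0.11.

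The median of fatty acid oxidation was -0.49. Of its 28 genes 1 lay above 0, and 3 were at least 2-fold lower. Cpt1a, which lets fatty acids into mitochondria, stood at 7.34 with AICAR and 8.77 in the control. The peroxisomal enzyme Hsd17b4 stood at 7.74 with AICAR and 8.92 in the control. The electron carrier Etfb stood at 8.22 with AICAR and 9.27 in the control. In the citrate cycle list (median -0.26) the anaplerotic enzyme pyruvate carboxylase (Pcx) was the 1 of 19 at least 2-fold lower, at 6.35 with AICAR and 7.69 in the control. That share (5.26%) is near the 3.69% of all genes. Short genes as a class had slightly lower differences: the fifth of genes with the shortest genomic span had a median of -0.12, and the fifth with the longest had 0.05. Centred on genes of like length, complex I had a median of -0.47, ATP synthase one of -0.34 and fatty acid oxidation one of -0.44.

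**Figure D3:**
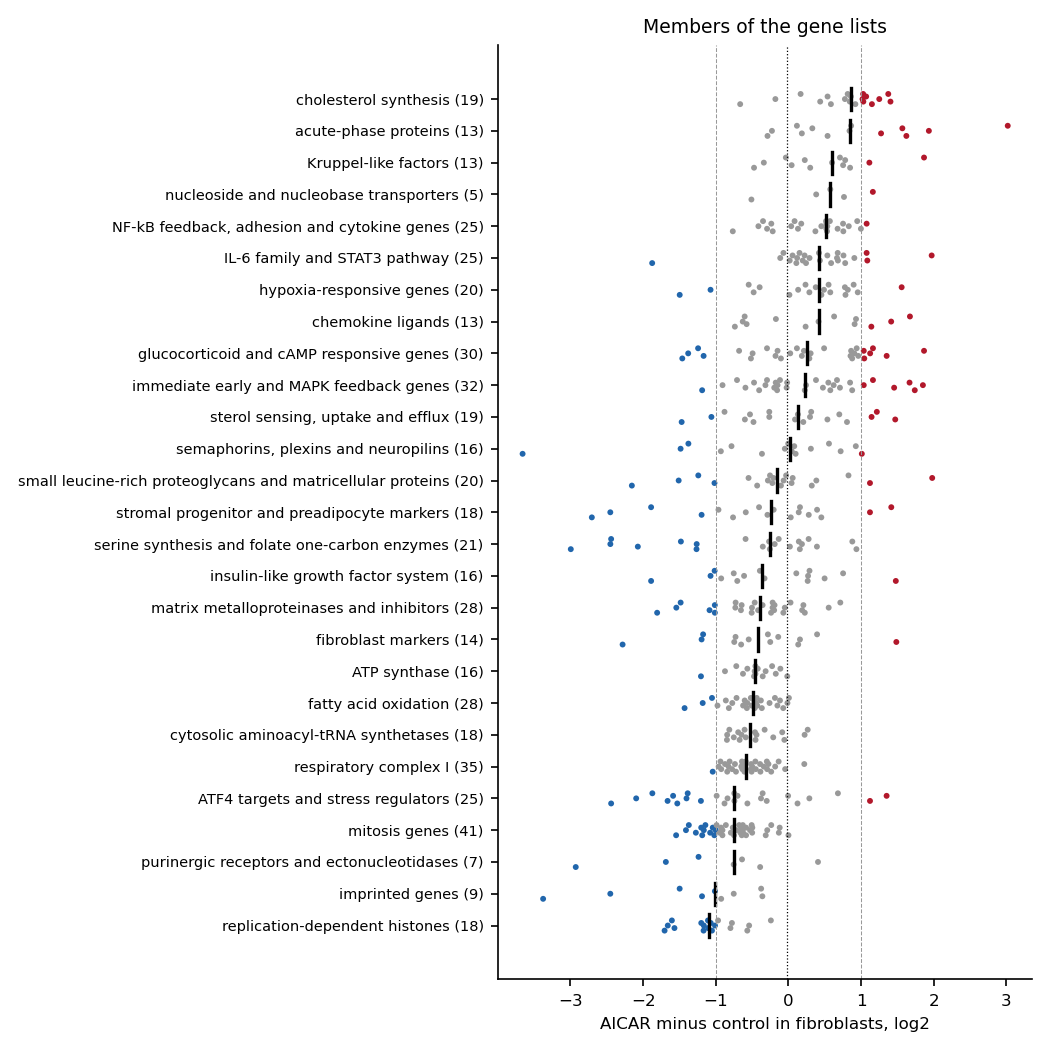
Differences of AICAR minus control fibroblasts (log2) for the members of 27 gene lists, with the number of members above the floor in brackets and a black bar at the median. Points at or beyond 1 and -1 (dashed lines) are red and blue, and the dotted line is the median of all genes, -0.03.

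Within the serine and one-carbon list the enzymes of serine synthesis and some mitochondrial folate enzymes were lower. Serine is made from a glycolytic intermediate by Phgdh, Psat1 and Psph, and its carbon enters mitochondrial folate through Shmt2, Mthfd2 and Aldh1l2. All 6 of these were at least 2-fold lower. Phgdh stood at 7.31 with AICAR and 8.79 in the control, Psat1 at 7.29 with AICAR and 9.74 in the control, and Psph at 6.67 with AICAR and 7.93 in the control. Shmt2 stood at 7.92 with AICAR and 9.18 in the control, Mthfd2 at 7.08 with AICAR and 9.16 in the control, and Aldh1l2 at 6.51 with AICAR and 9.50 in the control. Cth, which makes cysteine, was the seventh, at 5.78 with AICAR and 8.22 in the control. The 21 genes of the list had a median of only -0.26. The cytosolic enzymes Shmt1 and Mthfd1 differed by -0.27 and 0.14, and the mitochondrial isozymes Mthfd1l and Mthfd2l lay above 0, by 0.88 and 0.94.

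Many of these genes are known targets of ATF4, the transcription factor that cells translate more when amino acids run short or the endoplasmic reticulum is stressed. Of 25 ATF4 targets and stress regulators above the floor 9 reached 2-fold on the lower side and 2 on the higher side, with a median of -0.74. The glutathione-degrading enzyme Chac1 stood at 6.16 with AICAR and 8.26 in the control, asparagine synthetase (Asns) at 10.21 with AICAR and 11.42 in the control, and the pseudokinase Trib3 at 6.50 with AICAR and 8.03 in the control. Bcat1, Aldh18a1, Gpt2 and Atf5 differed by -1.39 to -1.66. Atf4 itself stood at 9.0 with AICAR and 9.35 in the control. The 2 members at least 2-fold higher were Atf3, a stress-induced factor of the same family, at 7.47 with AICAR and 6.35 in the control, and the amino acid sensing kinase Eif2ak4, at 8.60 with AICAR and 7.25 in the control.

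Amino acid transporters and tRNA synthetases lay mostly on the same side. Of 20 transporters 3 were at least 2-fold lower (15%, against 3.69% of all genes), and the median was -0.27. Slc7a5, which imports large neutral amino acids, stood at 7.63 with AICAR and 9.98 in the control, and the glycine transporter Slc6a9 at 6.68 with AICAR and 8.95 in the control. The partner chain of Slc7a5, Slc3a2, lay the other way, at 12.08 with AICAR and 11.49 in the control. Of 18 cytosolic aminoacyl-tRNA synthetases 16 had differences below 0 (median -0.52), and 0 were 2-fold different. By contrast the endoplasmic reticulum chaperones had a median of 0.07, and Hspa5, the chief chaperone there, stood at 12.01 with AICAR and 11.51 in the control.

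**Figure D4:**
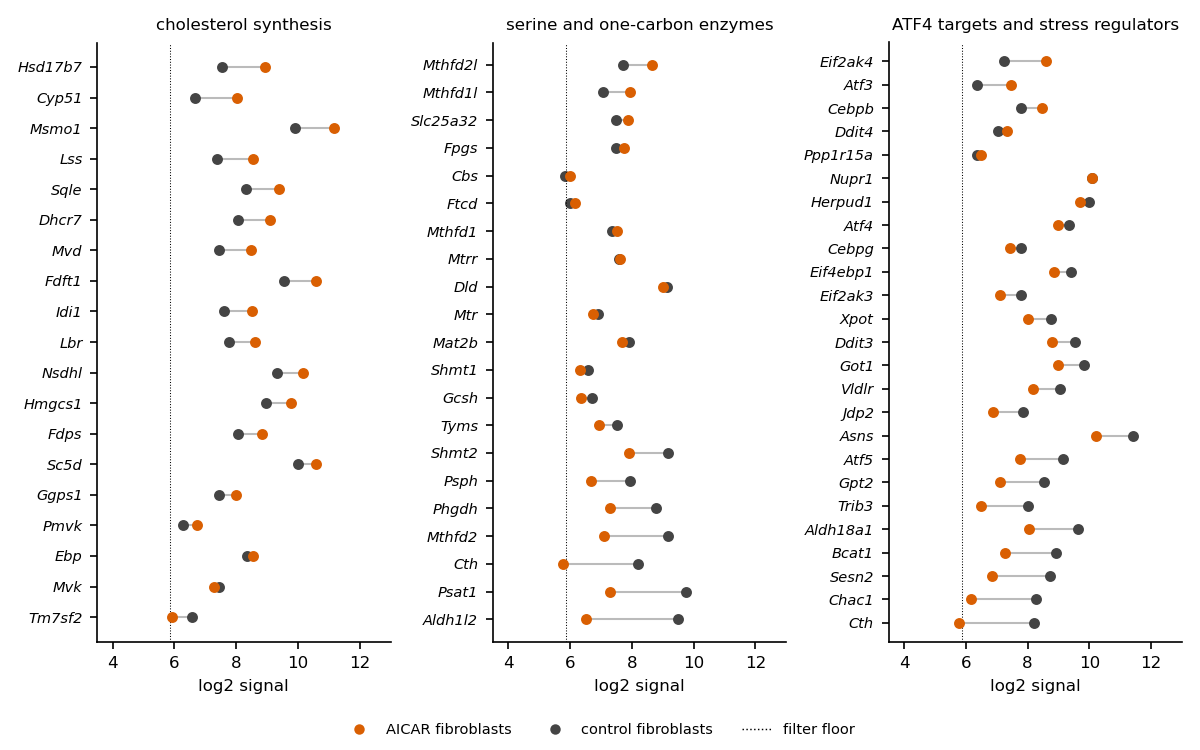
Log2 signal in AICAR fibroblasts (orange) and control fibroblasts (dark grey), 1 array each, for the sterol, serine and one-carbon, and ATF4 lists, ordered by difference. Orange lies right of grey for 17 of 19 sterol enzymes, while at the foot of the other 2 panels it lies far to the left, as for Aldh1l2 and Cth.

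The amino acid response element, to which ATF4 binds with a partner, was searched as TGATGNAA on both strands of the same windows. It was present in 9 of 29 windows of the ATF4 list (31%) and 4 of 11 of the synthetases (36.4%), against 3.97% of all windows. It was in 0 of 20 windows of the serine and one-carbon list and 2 of 22 of the transporters (9.09%). A match is a description of letters and not a bound site. The sequences below are upstream of the RefSeq starts and show how the element lies in genes described above, in 1 synthetase, and in Atf3, which differed in the opposite direction. Capitals mark the matches, and sequences are written on the strand of the gene. Chac1 is at chr2:119351024-119351081 (plus), Asns at chr6:7693210-7693257 (minus), the cystine importer gene Slc7a11 at chr3:50443628-50443704 (minus), the glycyl-tRNA synthetase gene Gars at chr6:55037946-55038000 (plus) and Atf3 at chr1:191183411-191183468 (minus).
Chac1: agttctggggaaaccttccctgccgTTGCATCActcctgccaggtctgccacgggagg
Asns: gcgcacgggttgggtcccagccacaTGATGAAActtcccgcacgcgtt
Slc7a11: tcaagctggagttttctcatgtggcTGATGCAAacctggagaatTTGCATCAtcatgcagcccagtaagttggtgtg
Gars: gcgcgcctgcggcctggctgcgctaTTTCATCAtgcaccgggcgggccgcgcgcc
Atf3: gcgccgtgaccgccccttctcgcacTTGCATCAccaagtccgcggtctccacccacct
Chac1 and Gars hold 1 element each on the opposite strand, Asns 1 on the gene's own strand and Slc7a11 1 on each. Slc7a11 stood at 6.41 with AICAR and 7.35 in the control, and Gars at 9.83 with AICAR and 10.59 in the control. Atf3, with an element of the same letters as Chac1, was 1.12 higher while Chac1 was 2.10 lower.

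Cell division genes were lower, those of mitosis more than those of the G1 to S step. Of 41 genes of mitosis above the floor 12 reached 2-fold on the lower side and 0 on the higher side, with a median of -0.75. The mitotic cyclin gene Ccnb2 stood at 6.56 with AICAR and 8.10 in the control, and Ccna2 at 7.28 with AICAR and 8.65 in the control. The proliferation antigen gene Mki67 stood at 6.92 with AICAR and 8.11 in the control, and the spindle motor Kif11 at 5.48 with AICAR and 6.75 in the control. Ube2c, the ubiquitin enzyme that helps to end mitosis, had 7.17 with AICAR against 8.21 in the control. For topoisomerase Top2a the 2 probe sets differed by -1.0 and -1.98. Genes of the G1 to S step and DNA replication had a median of -0.22, with 13 above 0 and 27 below. Of these 40 genes 2 were at least 2-fold lower (5%), a share near the 3.69% of all genes. These were cyclin D1 (Ccnd1), at 8.66 with AICAR and 9.97 in the control, and the polymerase gene Pola1, at 5.90 with AICAR and 7.13 in the control. The licensing factor Cdt1 lay above 0 by 0.68, and the cell cycle inhibitor Cdkn1b stood at 9.09 with AICAR and 9.03 in the control.

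All 18 replication-dependent histone genes above the floor had differences below 0, 12 of them at least 2-fold, and their median was -1.09. With imprinted genes (-1.01) this was the lowest of the lists with 5 or more members above the floor. Centred on genes of like length, the medians were -0.97 for histones and -0.99 for imprinted genes. The linker histone H1f5 stood at 6.20 with AICAR and 7.90 in the control, and H4c4 at 8.21 with AICAR and 9.81 in the control. Histone genes are near-identical copies, so probes may read more than 1 of them and the members are not independent. The number and the cycle phase of the cells were not measured here.

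The cell cycle homology region, an element of promoters that are active in mitosis, was searched as TTTGAA on both strands. It was present in 25 of 35 windows of the mitosis list (71.4%) against 17.9% of all windows, and the CCAAT box in 27 of the 35 (77.1%) against 37.4%. The CCAAT box was also present in 12 of 16 histone windows (75%). These stretches before the start of 3 of the lower mitosis genes show the short element in capitals, near the start in Kif11 and Ube2c and in 2 copies in Mki67. Kif11 is at chr19:37376338-37376381 (plus), Ube2c at chr2:164769875-164769928 (plus) and Mki67 at chr7:135716447-135716520 (minus).
Kif11: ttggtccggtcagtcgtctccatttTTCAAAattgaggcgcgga
Ube2c: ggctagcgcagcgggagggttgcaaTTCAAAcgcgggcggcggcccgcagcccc
Mki67: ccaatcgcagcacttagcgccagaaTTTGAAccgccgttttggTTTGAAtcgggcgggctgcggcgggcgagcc

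Ribosome biogenesis genes lay on the other side from cell division genes. Of 45 such genes 39 had differences above 0, where 47.5% of all genes did, with a median of 0.27. Gnl3, which encodes nucleostemin, stood at 9.79 with AICAR and 8.76 in the control. Myc, which drives this group in many cells and is a member of the list, stood at 9.80 with AICAR and 8.06 in the control. The 52 cytosolic ribosomal protein genes had a median of 0.08 and 0 at 2-fold, and some share near-identical copies.

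Genes of the connective tissue matrix differed member by member and not as one block. Of 30 collagen genes 4 reached 2-fold on the lower side (13.3%, against 3.69% of all genes) and 1 on the higher side (3.33%, against 1.7%). Their median was 0.0. Col3a1 stood at 10.50 with AICAR and 11.67 in the control, and Col6a2 and Col6a3, chains of the microfibrillar collagen VI, differed by -1.15 and -1.11. Type I collagen was lower by less, with Col1a1 at 11.18 with AICAR and 11.90 in the control. The microfibril genes Mfap5 (5.35 with AICAR, 8.40 in the control) and Mfap4 (5.86 with AICAR, 7.88 in the control) were the 2 of 16 elastic fibre genes that were at least 2-fold lower. Lox, the crosslinking enzyme, stood at 12.40 with AICAR and 12.02 in the control. Dermatopontin (Dpt), which binds collagen and decorin, stood at 6.95 with AICAR and 9.83 in the control.

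Small leucine-rich proteoglycans and matricellular proteins differed in both directions, with 4 of 20 members at 2-fold or more on the lower side and 2 on the higher side. Prelp stood at 8.42 with AICAR and 10.58 in the control, asporin (Aspn) at 9.94 with AICAR and 11.45 in the control, and the large proteoglycan versican (Vcan) at 9.63 with AICAR and 10.87 in the control. The higher members were Prg4 and Ccn5, which stood at 9.72 with AICAR and 8.60 in the control. Metalloproteinases and their inhibitors had 6 of 28 at least 2-fold lower and 0 higher, with a median of -0.39. The inhibitor Timp3 stood at 7.11 with AICAR and 8.92 in the control, and Mmp19 at 7.82 with AICAR and 9.37 in the control.

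Markers of stromal progenitors and preadipocytes included some of the largest differences. Cd248 (endosialin) stood at 6.98 with AICAR and 9.69 in the control, Igfbp4, which holds insulin-like growth factors, at 7.62 with AICAR and 9.51 in the control, and Thy1 at 8.26 with AICAR and 9.46 in the control. Matrix Gla protein (Mgp), an inhibitor of calcification, lay the other way, at 8.81 with AICAR and 7.39 in the control. Of 18 members 4 reached 2-fold on the lower side and 2 on the higher side. Imprinted genes, which are expressed from 1 parental copy and often restrain or favour growth, had 9 members above the floor, of 24 on the array. All 9 had differences below 0, and 5 were at least 2-fold lower. Beside Mest and Dlk1 these were necdin (Ndn), at 8.23 with AICAR and 9.72 in the control, the amino acid transporter Slc38a4, at 6.83 with AICAR and 8.02 in the control, and Peg10, at 7.94 with AICAR and 8.95 in the control. Igf2 stood at 5.92 with AICAR and 6.85 in the control. Fat cell regulators differed in both directions. Of 20 adipogenic transcription factors above the floor 11 had differences above 0 and 9 below, with a median of 0.17. At 2-fold or more 1 lay on each side (5% each, against 1.7% of all genes higher and 3.69% lower). Pparg stood at 9.04 with AICAR and 8.09 in the control, while the late marker Adipoq was below the floor on both arrays.

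Acute-phase genes above the floor were mostly higher. These genes encode plasma proteins that the liver and fat release in inflammation, and interleukin 6 acting through STAT3 is their chief inducer in liver cells. Of 13 members whose mean over the 6 arrays was above the floor, 5 reached 2-fold on the higher side and 0 on the lower side. Their median was 0.84. Without the filter, when dim members enter, the median was 0.29. Beside Hp, the protease inhibitor Serpina3n stood at 8.26 with AICAR and 6.32 in the control, the orosomucoid genes Orm1 at 6.73 with AICAR and 5.11 in the control and Orm2 at 7.36 with AICAR and 5.79 in the control, and ceruloplasmin (Cp) at 11.61 with AICAR and 10.33 in the control. The orosomucoids are near-identical copies, and probes may not separate them. In control fibroblasts Hp, Orm1 and Orm2 lay below the floor of 5.87, so the size of their folds depends on the background correction. The metallothioneins Mt1 and Mt2 differed by 0.12 and 0.19.

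In the interleukin 6 and STAT3 list 22 of 25 members had differences above 0 (median 0.42). Il6 itself failed the filter, which takes the mean over all 6 arrays, but stood above the floor at 6.66 with AICAR against 3.55 in the control. It was singled out after its values were seen. The receptor gene Osmr stood at 10.78 with AICAR and 9.69 in the control, the shared receptor chain Il6st at 10.82 with AICAR and 10.76 in the control, and Stat3 at 9.79 with AICAR and 9.20 in the control. The feedback inhibitor Socs3 differed by 0.76, whereas Socs2, a target of growth hormone signals, stood at 4.74 with AICAR and 6.61 in the control. The STAT site TTCNNNGAA, which reads the same on both strands, was present in 3 of 26 windows of the IL-6 and STAT3 list (11.5%), those of Socs3 and Bcl6, and in 0 of 11 acute-phase windows, against 8.30% of all windows.

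Chemokines and other inflammatory genes were higher in part. Of 13 chemokine genes 3 were at least 2-fold higher (23.1%, against 1.7% of all genes), with a median of 0.42. The neutrophil attractants Cxcl1 (8.89 with AICAR, 7.22 in the control) and Cxcl5 (8.98 with AICAR, 7.57 in the control) and Ccl8 (8.85 with AICAR, 7.70 in the control) were these 3. Cxcl10, which interferons induce, stood at 7.10 with AICAR and 7.67 in the control. Genes of NF-kB feedback, adhesion and cytokines had a median of 0.52 over 25 members, with 1 at least 2-fold higher, the coactivator Bcl3, at 8.39 with AICAR and 7.31 in the control. The summed leukocyte marker signal was also higher with AICAR, as given above, through Cd68. Ptprc was not higher, and 1 gene of the longer leukocyte list was lower. The part of leukocyte signal in these results was not tested.

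Interferon-stimulated genes showed no common direction. Of 37 members 2 reached 2-fold on the higher side (5.41%, against 1.7% of all genes) and 4 on the lower side (10.8%, against 3.69%). The median was 0.06. Ifit2 stood at 9.04 with AICAR and 7.17 in the control, and Rsad2 (viperin) at 9.10 with AICAR and 7.71 in the control. Ifi27l2a stood at 6.98 with AICAR and 10.16 in the control, and the antiviral kinase Eif2ak2 at 8.37 with AICAR and 9.61 in the control. In antigen presentation, beside Cd74, the thiol reductase gene Ifi30 stood at 9.32 with AICAR and 10.70 in the control, while the trimming peptidase Erap1 stood at 8.44 with AICAR and 7.31 in the control.

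Growth factor and early response genes differed in both directions. Kruppel-like factors had a median of 0.60 over 13 genes, with Klf7 at 9.06 with AICAR and 7.94 in the control beside Klf9. Of 32 immediate early and MAP kinase feedback genes 17 had differences above 0 and 15 below, with 6 at 2-fold or more on the higher side, 1 on the lower side and a median of 0.23. The phosphatases Dusp16 (7.92 with AICAR, 6.25 in the control) and Dusp10 (8.09 with AICAR, 6.63 in the control) were among the higher ones. Egr1, the classic early response factor, was the lower one, at 6.28 with AICAR and 7.47 in the control. In the TGF-beta and BMP list 4 of 32 were at least 2-fold higher, including the inhibitors of differentiation Id3 (7.48 with AICAR, 5.88 in the control) and Id4 (7.17 with AICAR, 5.66 in the control) and the activin chain Inhba (9.36 with AICAR, 7.85 in the control), while Tgfbi stood at 6.67 with AICAR and 8.16 in the control. Among growth factor ligands and receptors the median was 0.12, and 3 of 26 were at least 2-fold higher (11.5%, against 1.7% of all genes). These were Hgf, the receptor gene Flt1 (8.51 with AICAR, 7.09 in the control) and the Kit ligand Kitl (8.94 with AICAR, 7.63 in the control). In the semaphorin list Sema3a, like Sema3c, was lower, at 8.51 with AICAR and 10.0 in the control, and the receptor gene Nrp2 was higher, at 9.79 with AICAR and 8.78 in the control.

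Glucocorticoid and cAMP responsive genes also differed in both directions, with 6 of 30 members at 2-fold or more on the higher side and 4 on the lower side. The cAMP phosphodiesterase Pde4b stood at 6.40 with AICAR and 5.05 in the control, and the enzyme Hsd11b1, which regenerates active glucocorticoid, at 7.05 with AICAR and 5.93 in the control. The kinase Sgk1 stood at 5.41 with AICAR and 6.79 in the control. For Pde4d the 3 probe sets ran from -0.68 to 1.04, so no direction is given. The probe set used was the one at 1.04, so the counts of higher genes include Pde4d. Within the insulin-like growth factor list, the protease Pappa2 stood at 7.78 with AICAR and 6.30 in the control and Igf1 at 7.10 with AICAR and 8.12 in the control. Of the clock genes 1 of 19 was at least 2-fold higher (5.26%, against 1.7% of all genes). It was the repressor Bhlhe40, at 9.93 with AICAR and 8.47 in the control.

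The AICAR pair in adipocytes shares no array with the fibroblast pair and gives a second, differently timed exposure. There 61 genes were at least 2-fold higher (0.612%), 38 were at least 2-fold lower (0.381%), together 99 (0.993%). The genes 2-fold different in both states numbered 23, which is 4.28% of the 537 in fibroblasts and 23.2% of those in adipocytes. Of all 9969 genes, 0.993% were 2-fold different in adipocytes and 5.39% in fibroblasts, so both overlap shares lie above those of all genes. Across the 9969 genes the 2 sets of differences had a Pearson correlation of -0.04, with genes that are not independent. Of the 169 genes higher in fibroblasts 81 (47.9%) had a difference above 0 in adipocytes, where 47.4% of all genes did. Of the 368 lower ones 169 (45.9%) had a difference below 0 in adipocytes, where 52.6% of all genes did. The first share is near that of all genes, and the second is below it. The exposures differ in medium, in serum and, as the protocol reads, in 3 days without AICAR before adipocytes were taken, and these cannot be told apart from the cell state.

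Those 23 genes fall into 3 sets. Cxcl5, Orm2, Rsad2, Serpina3n and Slc10a6 were at least 2-fold higher in both states. Serpina3n had the largest such difference in adipocytes, 11.01 with AICAR against 9.18 in the control. Lower in both were 10 genes, with Mest, Sema3a, Agtr2, the metalloproteinase gene Adamts12 and the sulphatase gene Sulf2 among them. In adipocytes Mest stood at 6.94 with AICAR and 8.04 in the control. The other 8 genes differed at least 2-fold in opposite directions.

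Several list medians differed between the 2 states, and some had opposite signs, those of mitosis, ATF4 and complex I genes among them. The mitosis genes had a median of -0.75 in fibroblasts and 0.30 in adipocytes, AICAR minus control. The ATF4 targets had -0.74 in fibroblasts and 0.21 in adipocytes, and respiratory complex I had -0.59 in fibroblasts and 0.10 in adipocytes. The sterol enzymes had 0.86 in fibroblasts and -0.03 in adipocytes. Interferon-stimulated genes had 0.06 in fibroblasts and 1.11 in adipocytes. Acute-phase proteins (0.84 in fibroblasts, 0.45 in adipocytes) and chemokines (0.42 in fibroblasts, 0.89 in adipocytes) lay above 0 in both. With 1 array per condition these differences between states were not tested.

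**Figure D5:**
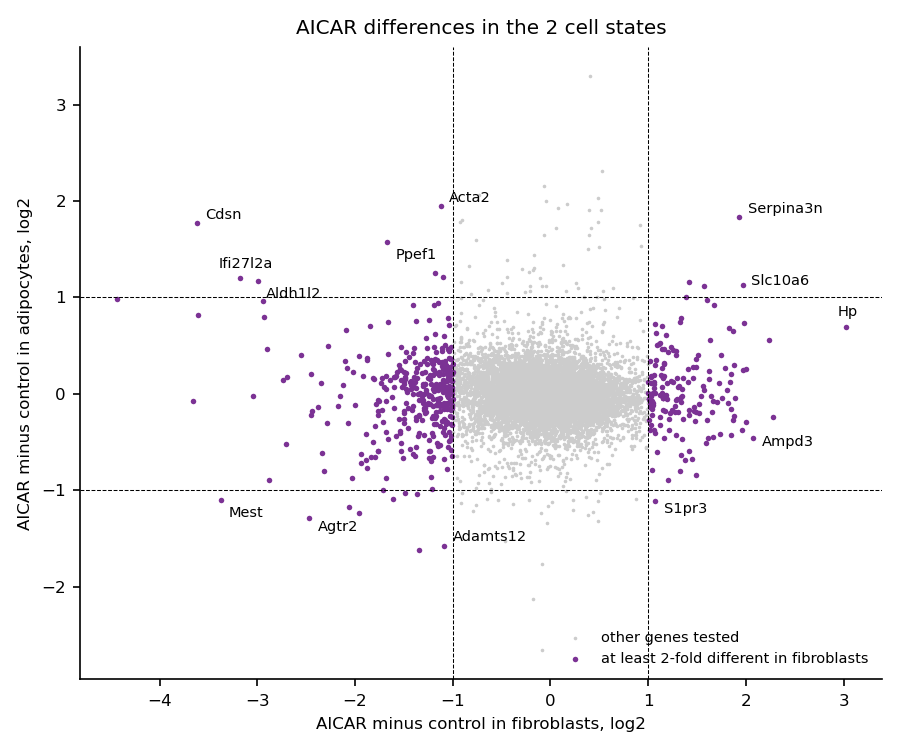
Differences of AICAR minus control (log2) in fibroblasts on the horizontal axis and in adipocytes on the vertical axis, for 9969 genes with 1 array per condition. Purple points are the 537 genes at least 2-fold different in fibroblasts, dashed lines mark 2-fold, and 23 purple points lie at or beyond 2-fold on the vertical axis as well.

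Adenine fibroblasts share the control array, so the values are only set side by side. Ampd3 had a difference of 2.08 with AICAR and -0.05 with adenine, Hp 3.02 with AICAR and 0.39 with adenine, and Sema3c -3.66 with AICAR and -0.01 with adenine. Prl2c5, a gene of the prolactin family, had 2.0 with AICAR and 1.29 with adenine. Cd74 had -4.44 with AICAR and -1.90 with adenine, and Cdsn -3.62 with AICAR and -1.15 with adenine. Among the list medians the sterol enzymes had 0.86 with AICAR and 0.31 with adenine, the ATF4 targets -0.74 with AICAR and -0.21 with adenine, and the mitosis genes -0.75 with AICAR and -0.10 with adenine.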

How the data were processed

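The authors deposited log2 expression values of 35556 probe sets for 6 arrays. Per the submitters' processing notes, the tool was Transcriptome Analysis Console (1.0.0.234) and the build mm10. No source used here gives the background correction or the normalization. Values were used as deposited, since array medians lay between 5.41 and 5.49. Gene symbols came from the platform annotation. Of the probe sets 21789 had 1 symbol, 1621 several and 12146 none, and 21698 matched RefSeq. For genes with several probe sets the one with the highest mean was used. Genes whose mean over 6 arrays was no lower than that of the median gene (log2 5.87) were compared by subtraction and a 2-fold threshold, in Python 3.11.15 with pandas 2.3.3. No statistical test was run, since each group has 1 array. The subtraction step was run on simulated data with little noise. That checks the code and does not show how reliable the 2-fold calls are. The 69 gene lists, the genes in them and the 2-fold threshold were chosen with earlier results of these data known. Named genes are the 30 largest differences each way (predicted genes, clones and small RNAs passed over), the 4 highest and lowest members of described lists and their 2-fold members, the purine and AMPK genes, Hp, Pfkfb3, Sema3c and Mest, some of which are printed. Other named genes were chosen for their role, or after their values were seen. Promoter windows and coordinates are RefSeq's on GRCm38.p6. Alternatives were quantile normalization, median centring, other filters, the mean of a gene's probe sets, a 1.5-fold threshold and, chosen after seeing the data, centring on genes of like length.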

Additional observations from a re-analysis of the deposited data

Results flagged for a closer look

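Of the genes at least 2-fold different with AICAR in both cell states, 8 lay in opposite directions, and the difference between states was not tested, since each condition has 1 array. S1pr3, a receptor for sphingosine phosphate, had a difference of 1.07 in fibroblasts and -1.11 in adipocytes. The other 7 were lower in fibroblasts and higher in adipocytes. The smooth muscle actin gene Acta2 had -1.13 in fibroblasts and 1.95 in adipocytes. Aldh1l2 had -3.0 in fibroblasts and 1.17 in adipocytes, Cdsn -3.62 in fibroblasts and 1.77 in adipocytes, and the phosphatase gene Ppef1 -1.67 in fibroblasts and 1.57 in adipocytes. The remaining 3 are induced by interferon. Bst2 (tetherin) had -1.10 in fibroblasts and 1.21 in adipocytes, Dhx58 -1.18 in fibroblasts and 1.26 in adipocytes, and Ifi27l2a -3.18 in fibroblasts and 1.20 in adipocytes.

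Probe sets that the comparisons did not use differed at shares like those of the named genes (1.7% and 3.69%). Among probe sets at or above the floor that carry no symbol, 44 of 3702 reached 2-fold on the higher side and 141 on the lower side with AICAR in fibroblasts (1.19% and 3.81%). Among those with several symbols, 7 of 792 reached 2-fold on the higher side and 34 on the lower side (0.884% and 4.29%). These probe sets have no single gene name here.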

How the results depend on the processing

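No paired analysis was possible because each group has 1 array. Of 458 values of 70 named genes under the alternatives, 456 stayed within 1.5 times or 0.1 of the value reported, and of 441 values of 63 list medians 403 did. The 60 genes of the largest differences stayed at least 2-fold different wherever they passed the filter. For single genes much of this was fixed in advance and is no sign of robustness. A change of filter leaves a gene's own value as it is, and averaging probe sets changes only genes with several. Median centring shifts all genes by the same small amount. P2rx3 had -1.66 as the mean of its probe sets, and Aprt 0.04 when centred on genes of like length. The counts of 169 higher and 368 lower genes were 197 and 321 after quantile normalization, which moved the median of all genes to 0.03, and 689 and 1206 at 1.5-fold. With the filter at the 75th percentile they were 78 and 212, over 4985 genes. The sterol and acute-phase medians were 0.94 and 0.95 after quantile normalization, and 0.89 and 0.97 centred on genes of like length. Of the list medians, 2 described ones reversed without the filter: purinergic receptors (0.17) and the insulin-like growth factor system (0.014). Elastic fibre genes reversed at the 75th percentile filter (0.017). Without the filter, where dim genes enter, the medians were nearer 0 for nucleoside transporters (0.18), metalloproteinases (-0.20), stromal progenitor markers (-0.088), imprinted genes (-0.14), chemokines (0.17), NF-kB genes (0.32), acute-phase proteins (0.29), the STAT3 list (0.24) and Kruppel-like factors (0.30). At the 75th percentile filter they were -0.76 for serine and one-carbon enzymes, -0.11 for the insulin-like growth factor system, 0.22 for the STAT3 list, 0.67 for immediate early genes, 0.49 for glucocorticoid and cAMP responsive genes and 0.91 for Kruppel-like factors. After quantile normalization sterol sensing genes had 0.26 and stromal progenitor markers -0.13. Centred on genes of like length, immediate early genes had 0.36. The cause of these shifts was not tested. For dim genes, signal near background limits what a fold can show.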

Other observations

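The filter on the mean of 6 arrays left out genes that were above the floor on a fibroblast array but had a low mean over all arrays. Among them 22 reached 2-fold on the higher side and 22 on the lower side with AICAR, with at least 1 of the 2 arrays at or above the floor of 5.87. They were chosen after their values were seen. Several encode secreted or membrane proteins. The vasoconstrictor gene endothelin 1 (Edn1) stood at 8.25 with AICAR and 5.86 in the control, and in adipocytes at 4.88 with AICAR and 4.60 in the control. Il6 was higher in adipocytes as well, but both levels there (3.96 with AICAR, 2.24 in the control) lie far below the floor. Cybb, a catalytic subunit of the phagocyte NADPH oxidase, stood at 5.94 with AICAR and 4.01 in the control. The adhesion receptor gene Adgrd1 stood at 7.65 with AICAR and 5.50 in the control, and the calcium channel gene Cacna1c at 7.30 with AICAR and 5.61 in the control.

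On the lower side, Cd55, which protects cells from complement, stood at 3.40 with AICAR and 6.18 in the control, and the musculoskeletal hormone gene Ostn at 3.83 with AICAR and 6.41 in the control. The transporter genes Abca8a (5.34 with AICAR, 7.74 in the control) and Abca9 (4.79 with AICAR, 6.81 in the control) lay on the same side as their relative Abca8b, which passed the filter at 5.36 with AICAR and 8.06 in the control. The sodium and calcium exchanger gene Slc8a1 stood at 4.77 with AICAR and 6.89 in the control.

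E-boxes of the letters CACGTG were present in 14 of 48 windows of lysosomal genes (29.2%) and 5 of 24 of clock genes (20.8%), against 7.15% of all windows. The 45 lysosomal genes above the floor had a median difference of -0.20, with the enzyme genes Naglu (7.88 with AICAR, 9.56 in the control) and Gusb (7.18 with AICAR, 8.67 in the control) among the lowest. Gusb is often used as a reference gene. Of 13 reference genes above the floor it was the 1 that was at least 2-fold lower, and Eef1a1 stood at 13.21 with AICAR and 13.12 in the control.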
